A study of Mus musculus with 9 samples.

Results

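The genes described here are 10 imprinted genes with known roles in growth and development, Nnat, Mest, Impact, Ndn, Peg3, Grb10, Plagl1, H19, Dlk1 and Snrpn, found by their symbols among 23420 rows of a table of gene levels. All 10 were present, and all 10 passed the filter on low values used for testing. The cells were neural stem cells from the hippocampus of 2-day-old wild type C57BL/6J mice, grown in culture and then moved to drop-out medium, which lacks bFGF and EGF and allows differentiation. In that medium, the cells of 3 libraries received 3 µM NAT, a compound known here by its code name, 3 received 3 µM P7C3-A20, a carbazole compound known for protecting newborn neurons in mice, and 3 received the vehicle DMSO. The labels give neither the length of treatment nor the number of mice behind each library, and name the 3 libraries per group as biological replicates.

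Imprinted genes are expressed mainly from the copy inherited from one parent. The parental copies differ in DNA methylation that is laid down in the germ line and kept through cell division. Many imprinted genes lie in clusters that share a control region. In mice, paternally expressed members tend to favour growth and maternally expressed members to restrain it, and several are abundant in the developing brain. Nnat, Mest, Impact, Ndn, Peg3, Plagl1, Dlk1 and Snrpn are known as paternally expressed genes, H19 as a maternally expressed non-coding RNA, and Grb10 is maternally expressed in most tissues but paternally expressed in neurons. The mice were of a single inbred strain and the table gives 1 level per gene, so the parental copies were not separated, and all values are total levels.

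Of the 10 genes, 8 had a promoter window in RefSeq (assembly GRCm38.p6), with 14 start sites in all. Each window ran from 250 bases before to 50 bases after the start. H19 and Impact had no window. The palindrome CGCATGCG, the core of the site bound by the transcription factor NRF1, occurred in windows of 3 genes, Nnat, Ndn and Snrpn, and at all 4 starts of Snrpn. Where it lay before a Snrpn start, the letters around it were nearly alike, so these are not read as independent matches. At the remaining Snrpn start it lay 36 bases after the start. The palindrome occurred in 1.86% of 32817 promoter windows of the genome. The letters were searched after the windows had been read. These are shown because this feature occurs both in the most abundant of the 10 genes, Nnat, and in the least abundant, Snrpn, with the palindrome in capitals and each stretch ending before the start site:
Nnat, chr2:157560037-157560076, plus strand: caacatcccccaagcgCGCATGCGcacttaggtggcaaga
Ndn, chr7:62348238-62348276, plus strand: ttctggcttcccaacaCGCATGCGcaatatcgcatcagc
Snrpn, chr7:60450217-60450256, minus strand: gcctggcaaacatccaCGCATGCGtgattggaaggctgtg
Snrpn, chr7:60140280-60140319, minus strand: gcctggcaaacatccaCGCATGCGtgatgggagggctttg

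The palindrome began 25 bases before the start of Nnat and 23 before that of Ndn. At the Snrpn starts shown it began 63 and 78 bases before. A second palindrome, GGGGCCCC, part of the GC-rich site bound by the member PLAGL1, was in the Peg3 window alone among the 8 genes and in 1.07% of all windows. The Peg3 stretch is shown because PLAGL1 is itself one of the 10, with the palindrome in capitals:
Peg3, chr7:6730597-6730636, minus strand: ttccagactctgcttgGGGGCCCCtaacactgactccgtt

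The promoter windows of the 14 starts had a median GC content of 56.5%, against 52.7% for all windows. Their median ratio of observed to expected CpG dinucleotides was 0.52, against 0.38 for all windows. Within the set the ratio ran from 0.13 at a Snrpn start to 0.97 at a Grb10 start. Such matches are descriptions of these letters and say nothing of binding in these cells.

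Levels were given in TPM, transcript abundances in which reads are divided by gene length and each library is scaled to the same total, so levels may be compared between genes. Whole reads recovered from the steps of the TPM values came to 12738006 to 13516248 per library with NAT, 15380977 to 16929714 with P7C3-A20 and 11487218 to 13604222 with DMSO. Levels followed the GC content of genes differently between libraries. The slope was steepest in P7C3-A20 replicate 3, at 0.11 on the log2 scale per 10 percentage points of GC, against -0.06 to 0.04 in the other 8 libraries. As a description over 13700 genes of the same libraries, Spearman's rho between GC content and log2 fold change was 0.006 when NAT was set against DMSO. It was 0.479 when P7C3-A20 was set against DMSO, and -0.47 when NAT was set against P7C3-A20. Values with this trend removed are therefore given for the 10 genes in the comparisons that involve P7C3-A20, and for the related genes named there.

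The culture expressed genes of neural progenitors, astrocytes, the oligodendrocyte lineage and neurons together. The 8 progenitor markers summed to 18386 to 18842 TPM with NAT, 17408 to 18316 TPM with P7C3-A20 and 19007 to 19426 TPM with DMSO. Fabp7, whose mean was 11515 TPM, led this sum and was lower with both compounds than with DMSO, while Sox2 and Pax6 had log2 fold changes of 0.03 and 0.06 with NAT and 0.06 and 0.04 with P7C3-A20. The 8 astrocyte markers summed to 11666 to 12355 TPM with NAT, 11733 to 12397 TPM with P7C3-A20 and 10980 to 12115 TPM with DMSO. All 8 had a positive log2 fold change for NAT against DMSO, beside 63.5% of all genes. An unadjusted limma p under 0.05 was found for 3 of them, beside 11.7% of all genes. The 8 oligodendrocyte markers summed to 3412 to 3575 TPM with NAT, 3546 to 4132 TPM with P7C3-A20 and 3576 to 3720 TPM with DMSO. All 8 had a negative log2 fold change for NAT against P7C3-A20, where 54% of all genes were positive. Of these 8, 5 had an unadjusted limma p under 0.05, beside 15.8% of all genes. The GC trend was not removed from the marker values given here. The 8 neuron markers summed to 703 to 749 TPM with NAT, 679 to 736 TPM with P7C3-A20 and 719 to 746 TPM with DMSO. No gene of these 4 lists was called by limma, and the part of cell makeup in the values below was not tested. Voom on the recovered reads called 3 genes from all lists used here where NAT was set against DMSO. It called 4 where P7C3-A20 was, and 8 between the compounds. These counts are not split by list. Because H19, Dlk1 and Igf2 are also known from mesenchyme and vessels, markers of these cells were read too. The 14 mesenchyme and meninges markers summed to 13.9 to 15.5 TPM with NAT, 15.0 to 16.6 TPM with P7C3-A20 and 12.7 to 17.9 TPM with DMSO. Of these, 10 stayed under 1 TPM in every library and Lum and Aldh1a2 were listed at 0. Foxc1 was the highest at a mean of 7.74 TPM, and Tagln averaged 4.73 TPM. The 8 endothelial markers summed to 2.05 to 3.08 TPM with NAT, 2.56 to 2.85 TPM with P7C3-A20 and 2.05 to 2.32 TPM with DMSO. Cldn5 and Cdh5 were listed at 0, and Kdr was the highest at a mean of 1.52 TPM. The 10 microglia and macrophage markers summed to 7.65 to 9.38 TPM with NAT, 8.21 to 9.28 TPM with P7C3-A20 and 6.79 to 8.53 TPM with DMSO, nearly all of it Cd68, with Trem2, Cx3cr1, Ctss and C1qc listed at 0. The 6 choroid plexus markers summed to 24.5 to 26.1 TPM with NAT, 22.4 to 27.9 TPM with P7C3-A20 and 23.7 to 25.9 TPM with DMSO, of which Otx2 alone averaged 22.8 TPM. Of 6 blood markers, the 4 haemoglobin genes were listed at 0, and Alas2 was the highest at a mean of 1.89 TPM. In such mixed cultures, fewer cells of a type and less RNA per cell cannot be told apart.

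The 10 genes spanned more than 3 orders of magnitude in level. Nnat, which encodes a small membrane proteolipid of developing brain, averaged 1997 TPM over the 9 libraries and ranked 29 among 19302 genes with any value. Mest, which encodes a hydrolase-like protein of the endoplasmic reticulum and marks mesoderm, averaged 133.8 TPM. Then came Impact at 82.8 TPM, Ndn at 77.9 TPM and Peg3 at 73.2 TPM, whose libraries overlapped with those of the neighbour in this order. Grb10 followed at 19.8 TPM, clear of its neighbours on both sides. Plagl1 averaged 6.66 TPM, H19 3.98 TPM, Dlk1 2.80 TPM and Snrpn 1.33 TPM. The libraries of Plagl1 and H19 overlapped, as did those of H19 and Dlk1, while every Dlk1 value lay above every Snrpn value.

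**Figure D1:**
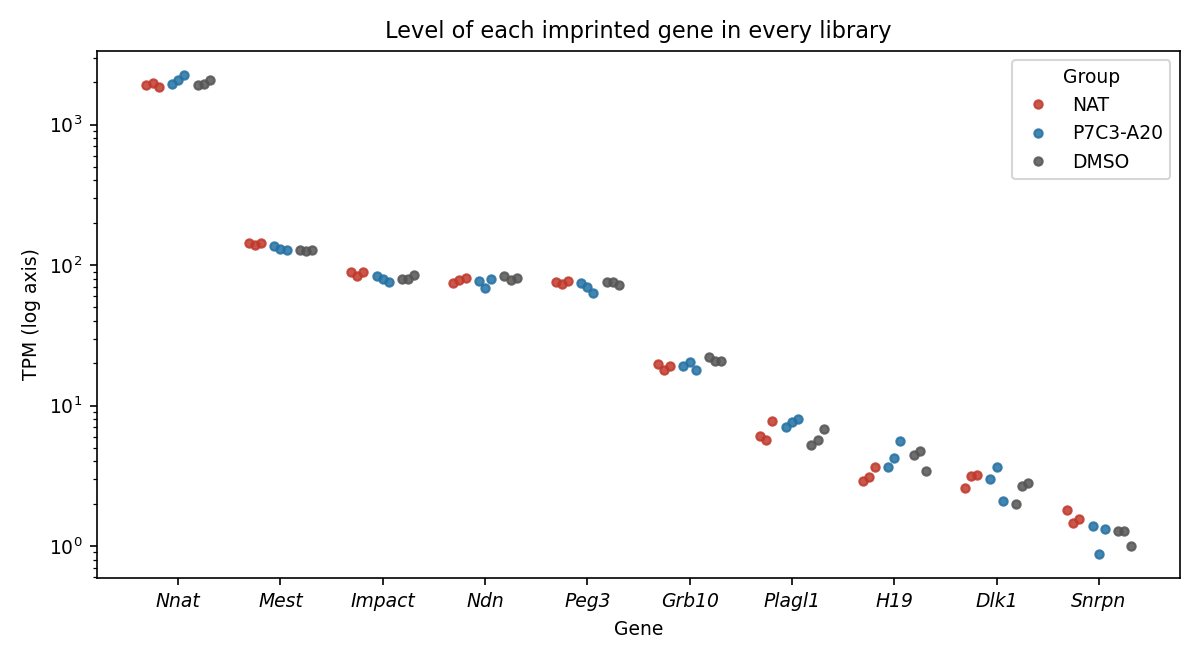
TPM on a log axis for the 10 genes in each of the 9 libraries, as points coloured by group. Nnat stood between 1862 and 2265 TPM in every library and Snrpn between 0.88 and 1.81 TPM, and for each gene the groups lay close together against the distance between genes.

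The 4 genes with the fewest reads had the widest spread between replicates. Within groups the coefficient of variation was 2.41% for Mest, 4.28% for Impact and 5.50% for Nnat, at 1494 to 2229, 1173 to 1704 and 10004 to 15802 reads per library. It was 12.4% for Plagl1, 18.8% for H19, 20.1% for Dlk1 and 15.9% for Snrpn. These rested on 127 to 249, 35 to 85, 44 to 110 and 12 to 20 reads per library, for which counting error alone gives 7.44%, 13.7%, 12% and 25.1%. The 3 group means differed among themselves by a coefficient of variation between 3.6% for Ndn and 18.2% for Snrpn.

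Groups were compared with limma on log2(TPM + 1), and a gene was called at an adjusted p (Benjamini-Hochberg over 13839 genes) under 0.05. The added 1 shrinks the limma log2 fold changes of genes at a few TPM, which understate differences in TPM itself. With NAT against DMSO, 4 genes or 0.0289% were called, and 29 by voom on the recovered reads. With P7C3-A20 against DMSO, 3 genes or 0.0217% were called, and 273 by voom. With NAT against P7C3-A20 no gene or 0% was called by limma, 2188 had an unadjusted p under 0.05, and voom called 301. None of the 10 imprinted genes was called in any of the 3 comparisons, and none was called by voom on the recovered reads. An unadjusted p under 0.05 was found for 2 of the 10 when NAT was set against DMSO, beside 11.7% of all genes, and for 2 when P7C3-A20 was, beside 15.9%. For NAT against P7C3-A20 it was found for 5 of the 10, beside 15.8%, but for Mest alone without NAT replicate 1 or without P7C3-A20 replicate 3, and for 2 without P7C3-A20 replicate 2. The count for NAT against DMSO was 1 without NAT replicate 3 or DMSO replicate 1, 3 without P7C3-A20 replicate 1 or 3, and 4 without DMSO replicate 3. That for P7C3-A20 against DMSO was 0 without DMSO replicate 1 or 2, and 1 without DMSO replicate 3, P7C3-A20 replicate 2, P7C3-A20 replicate 3 or NAT replicate 3. Without P7C3-A20 replicate 3 the gene was Ndn. Without P7C3-A20 replicate 1 the count rose to 3, with Plagl1, Nnat and Peg3. With the GC trend removed the counts were 2, 2 and 1, beside 12%, 11% and 11.7% of all genes. Both compounds were set against the same 3 DMSO libraries, so the first 2 comparisons are not independent. The NAT and DMSO libraries did not overlap for 3 of the 10 genes, beside 19% of all genes. Mest and Snrpn were higher in every NAT library, beside 14.1% of all genes, and Grb10 was lower, beside 4.89%. The P7C3-A20 and DMSO libraries did not overlap for 2 of the 10, beside 20.6%. Plagl1 was higher in every P7C3-A20 library, beside 13.1%, and Grb10 was lower, beside 7.49%. The NAT and P7C3-A20 libraries did not overlap for 3 of the 10, beside 21.7%. Mest, Impact and Snrpn were higher in every NAT library, beside 13.3%, and 0 of the 10 were lower, beside 8.35%. These shares of all genes are for single comparisons. No share was counted for a group set apart from both other groups, as described for single genes below.

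**Figure D2:**
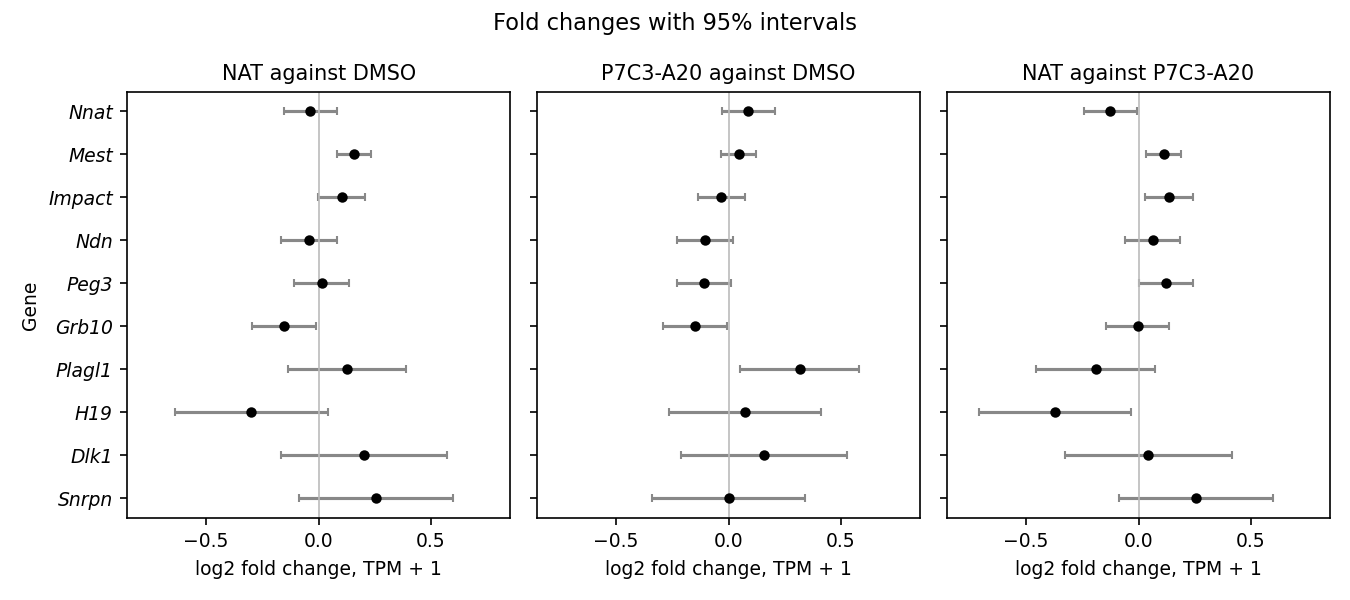
Log2 fold change on the log2(TPM + 1) scale (points) with its 95% interval (bars) for each gene, in rows from the most to the least abundant, in the 3 comparisons. The interval of Mest for NAT against DMSO ran from 0.08 to 0.23, and the 4 least abundant genes had the widest intervals, such as -0.17 to 0.57 for Dlk1 in that comparison.

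Among the 10 genes, Mest had the lowest p for NAT against DMSO. It stood at 144.5, 139.3 and 143.0 TPM in NAT replicates 1, 2 and 3, at 137.0, 129.3 and 128.7 TPM in the P7C3-A20 replicates and at 128.9, 125.7 and 128.0 TPM in the DMSO replicates. Every NAT library lay above every other library, while the P7C3-A20 and DMSO libraries overlapped at their edges. The log2 fold change of NAT against DMSO was 0.16 ± 0.03 (SE, n = 3 each), a 1.11-fold difference with a 95% interval of 1.06 to 1.17, and the limma adjusted p was 0.210. NAT against P7C3-A20 gave 0.11 ± 0.03 with a limma adjusted p of 0.208, and 0.08 with the GC trend removed. P7C3-A20 against DMSO gave 0.04 (interval -0.03 to 0.12), and 0.05 with the GC trend removed. The exons of Mest share 912 of 3945 bases with those of Copg2 on the opposite strand in GENCODE (GRCm38), and strand is not stated to have been kept. Copg2 itself stood at 96.6 to 100.8 TPM with NAT, 88.5 to 95.4 TPM with P7C3-A20 and 94.3 to 103.4 TPM with DMSO, with a log2 fold change of -0.02 for NAT against DMSO. The ratio of Mest to Copg2 was 1.43 to 1.48 with NAT, 1.354 to 1.497 with P7C3-A20 and 1.22 to 1.36 with DMSO.

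Grb10 encodes an adaptor that binds the insulin and IGF1 receptors and dampens their signal. It was lower with both compounds, without a call. It stood at 19.8, 18.0 and 19.3 TPM with NAT, at 19.2, 20.3 and 17.8 TPM with P7C3-A20 and at 22.3, 20.8 and 20.8 TPM with DMSO. All 6 compound libraries lay below all 3 DMSO libraries, and the compounds overlapped each other. The log2 fold changes were -0.15 ± 0.06 for NAT (limma adjusted p 0.400) and -0.15 ± 0.06 for P7C3-A20 (limma adjusted p 0.293). With the GC trend removed they were -0.18 and -0.16. With a library left out they ran from -0.18 to -0.12 for NAT and from -0.19 to -0.10 for P7C3-A20. Without DMSO replicate 1, the highest library, or without NAT replicate 3, neither had an unadjusted limma p under 0.05. For NAT this was also so without NAT replicate 2. For P7C3-A20 it was also so without DMSO replicate 2 or 3, or P7C3-A20 replicate 1 or 3. For NAT against P7C3-A20 the log2 fold change was -0.004 with an interval of -0.15 to 0.14, and -0.02 with the GC trend removed.

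Plagl1 encodes a zinc finger factor that restrains proliferation and regulates other imprinted genes. It stood at 6.10, 5.73 and 7.80 TPM with NAT, at 7.07, 7.62 and 7.98 TPM with P7C3-A20 and at 5.27, 5.64 and 6.77 TPM with DMSO. All P7C3-A20 values exceeded all DMSO values, and the NAT values overlapped both. For P7C3-A20 against DMSO the log2 fold change was 0.32 ± 0.12, an interval of 0.05 to 0.58, with a limma adjusted p of 0.245. It was 0.33 with the GC trend removed. NAT against DMSO gave 0.13 (-0.14 to 0.39), with 0.01 without NAT replicate 3, 0.06 without DMSO replicate 1 and 0.22 without DMSO replicate 3. NAT against P7C3-A20 gave -0.19 (-0.45 to 0.07), and -0.23 with the GC trend removed.

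**Figure D3:**
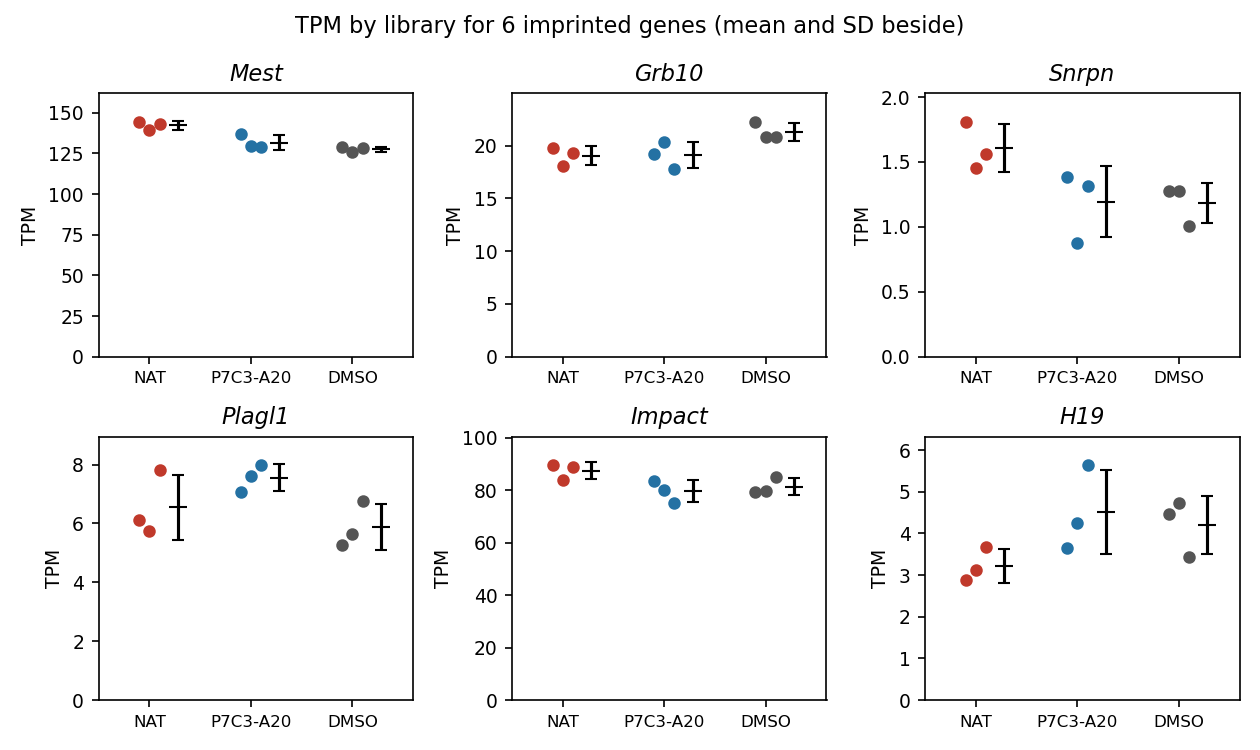
TPM in each library (points), with the group mean and SD beside them, for 6 of the genes, on linear axes that start at 0. Mest is highest in the 3 NAT libraries, Grb10 in the 3 DMSO libraries and Plagl1 has its lowest P7C3-A20 value, 7.07 TPM, above the highest DMSO value, 6.77 TPM.

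Impact encodes an inhibitor of GCN2, the kinase that slows translation when amino acids run short. It stood at 89.6, 83.8 and 89.0 TPM with NAT, at 83.6, 79.95 and 75.4 TPM with P7C3-A20 and at 79.3, 79.9 and 85.1 TPM with DMSO. The lowest NAT library was just above the highest P7C3-A20 library, and DMSO overlapped both. For NAT against P7C3-A20 the log2 fold change was 0.13 ± 0.05 with a limma adjusted p of 0.237. With the GC trend removed it was 0.05 and the groups overlapped, and without P7C3-A20 replicate 3 it was 0.10. Against DMSO, NAT gave 0.10 (-0.003 to 0.208) and P7C3-A20 gave -0.03 (-0.14 to 0.07), which was 0.02 with the GC trend removed.

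Peg3, a large zinc finger protein linked to maternal behaviour and to p53-dependent cell death, stood at 76.0, 73.0 and 77.4 TPM with NAT, at 74.7, 69.8 and 63.7 TPM with P7C3-A20 and at 76.2, 76.2 and 71.9 TPM with DMSO. P7C3-A20 replicate 3 was the lowest library, and the groups overlapped in all 3 comparisons. NAT against DMSO gave a log2 fold change of 0.01 (-0.11 to 0.14), P7C3-A20 against DMSO one of -0.11 (-0.23 to 0.01) and NAT against P7C3-A20 one of 0.12 (0.0008 to 0.24). With the GC trend removed these were -0.02, -0.10 and 0.08.

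Nnat stood at 1920, 1982 and 1862 TPM with NAT, at 1946, 2084 and 2265 TPM with P7C3-A20 and at 1916, 1932 and 2069 TPM with DMSO. P7C3-A20 replicate 3, the library with the steepest GC slope, was the highest, and Nnat had the highest GC content of the 10 genes, 58.6% in its longest transcript. NAT against DMSO gave a log2 fold change of -0.04 (-0.16 to 0.08), P7C3-A20 against DMSO one of 0.09 (-0.03 to 0.21) and NAT against P7C3-A20 one of -0.12 (-0.24 to -0.01). With the GC trend removed they were -0.06, -0.01 and -0.05. Nnat lies inside an intron of Blcap, and its level was 17.1 to 19.3 times that of Blcap with NAT, 17.7 to 21.2 times with P7C3-A20 and 19.2 to 19.9 times with DMSO.

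Ndn, a MAGE family protein that favours cell cycle exit and survival of neurons, stood at 74.6, 78.7 and 81.3 TPM with NAT, at 76.8, 68.6 and 79.5 TPM with P7C3-A20 and at 83.2, 78.1 and 80.4 TPM with DMSO. All groups overlapped, and the log2 fold changes were -0.04 (-0.17 to 0.08) with NAT and -0.10 (-0.23 to 0.02) with P7C3-A20. NAT against P7C3-A20 gave 0.06 (-0.06 to 0.19). Removing the GC trend gave -0.07 where P7C3-A20 was set against DMSO and -0.002 between NAT and P7C3-A20.

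H19, a long non-coding RNA that restrains growth and hosts a microRNA in its first exon, stood at 2.88, 3.11 and 3.67 TPM with NAT, at 3.65, 4.25 and 5.64 TPM with P7C3-A20 and at 4.47, 4.74 and 3.42 TPM with DMSO. The groups overlapped in every comparison, with P7C3-A20 replicate 3 the highest library. These rested on 119 reads in all with NAT, 209 with P7C3-A20 and 152 with DMSO. NAT against DMSO gave a log2 fold change of -0.30 (-0.64 to 0.04), P7C3-A20 against DMSO one of 0.07 (-0.26 to 0.41) and NAT against P7C3-A20 one of -0.37 (-0.71 to -0.03). The limma adjusted p of NAT against P7C3-A20 was 0.281, and with the GC trend removed the log2 fold change was -0.32 with a limma adjusted p of 0.435. P7C3-A20 against DMSO gave -0.002 with the GC trend removed, and -0.07 without P7C3-A20 replicate 3. Mir675, the microRNA inside H19, was listed at 0 throughout.

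Dlk1 encodes a transmembrane protein with EGF-like repeats, related to Notch ligands, that keeps precursors undifferentiated. It stood at 2.597, 3.17 and 3.22 TPM with NAT, at 3.00, 3.68 and 2.09 TPM with P7C3-A20 and at 1.98, 2.67 and 2.81 TPM with DMSO. The highest and the lowest of the compound-treated libraries were both from P7C3-A20, and all groups overlapped. The log2 fold changes were 0.20 (-0.17 to 0.57) with NAT and 0.16 (-0.21 to 0.53) with P7C3-A20. The intervals reach 1.49-fold and 1.44-fold differences in TPM + 1. In TPM itself the differences allowed are larger, since Dlk1 stood so low. NAT against P7C3-A20 gave 0.04 (-0.33 to 0.41). Without the GC trend, P7C3-A20 against DMSO gave 0.10 and NAT against P7C3-A20 gave 0.07. Single libraries moved these values. NAT against DMSO was 0.09 without DMSO replicate 1. P7C3-A20 against DMSO was 0.02 without P7C3-A20 replicate 2, 0.05 without DMSO replicate 1 and 0.32 without P7C3-A20 replicate 3, and NAT against P7C3-A20 ran between -0.12 and 0.18 with a library left out.

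Snrpn, which encodes a neuronal form of the spliceosome protein SmB, stood at 1.81, 1.45 and 1.56 TPM with NAT, at 1.39, 0.88 and 1.31 TPM with P7C3-A20 and at 1.27, 1.28 and 1.00 TPM with DMSO. Every NAT library lay above the others, but a library held only 17 to 20 reads with NAT, 13 to 19 with P7C3-A20 and 12 to 14 with DMSO. The log2 fold change of NAT against DMSO was 0.26 (-0.09 to 0.60) with a limma adjusted p of 0.537. NAT against P7C3-A20 also gave 0.26 (-0.09 to 0.60), at a limma adjusted p of 0.441. P7C3-A20 against DMSO gave 0.0001 (-0.34 to 0.34). Removing the GC trend gave 0.20 for NAT against P7C3-A20 and 0.02 for P7C3-A20 against DMSO. The level of Snrpn is uncertain. In GENCODE it shares 589 exon bases with Gm38393 and 216 with Snurf, the reading frame at the start of the same transcript, and Snurf was listed at 0 in all 9 libraries. How reads of shared exons were assigned is not given in the sources used here.

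**Figure D4:**
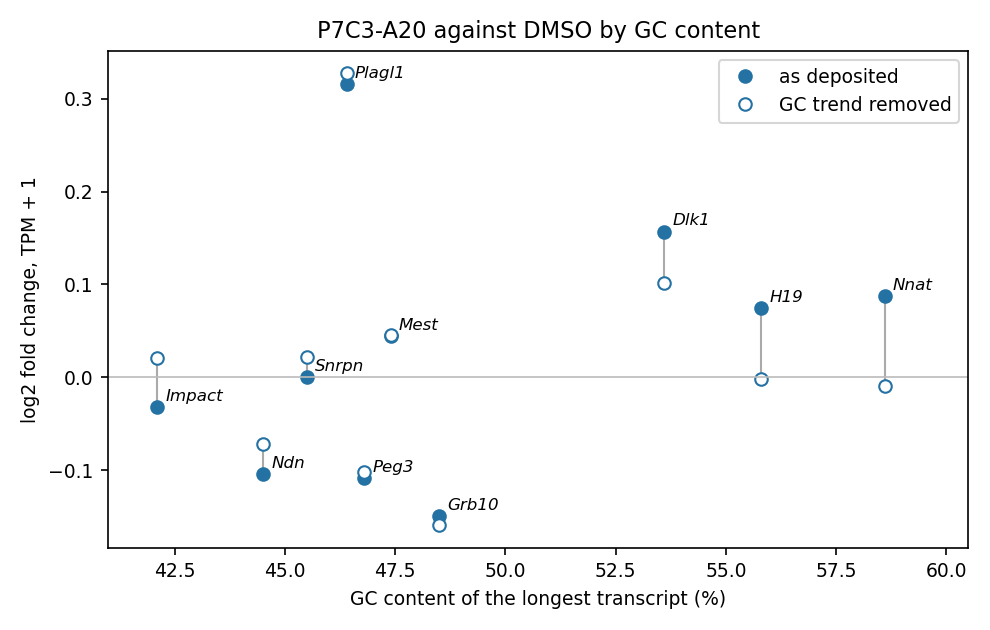
Log2 fold change of P7C3-A20 against DMSO (log2(TPM + 1) scale) by the GC content of each gene's longest transcript, as deposited (filled) and with each library's GC trend removed (open), joined by a line. Dlk1, H19 and Nnat, at 53.6% to 58.6% GC, moved towards 0, while Plagl1 (0.32 and 0.33) and Grb10 (-0.15 and -0.16) hardly moved.

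The genes that lie in the same imprinted clusters differed widely from the members beside them. In the Dlk1 cluster the non-coding RNAs Rian and Meg3 averaged 2.86 and 1.36 TPM, close to Dlk1, while Dio3 was listed at 0. Beside H19, Igf2, the growth factor gene that shares its enhancers, averaged 0.40 TPM on 5 to 14 reads per library, and H19 stood at 9.94 times its level. Further along that chromosome region Cd81, a tetraspanin gene, averaged 2073 TPM. Beside Peg3, Zim1 averaged 2.19 TPM and Usp29 1.28 TPM, which put Peg3 at 33.4 and 57.0 times their levels. In the Prader-Willi region, Ipw averaged 37.9 TPM and Ube3a, the ubiquitin ligase gene of Angelman syndrome, 48.6 TPM, beside Ndn at 77.9 and Snrpn at 1.33 TPM. Magel2 had 0 to 5 reads per library. Blcap averaged 104.9 TPM beside Nnat, and Cobl 2.63 TPM beside Grb10.

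Of 42 neighbouring genes listed, 37 were in the table, 32 had a value and 21 passed the filter. None was called in any comparison by limma with the group as the only factor. For NAT against DMSO the lowest p-values belonged to Tssc4 and Osbpl5, both from the Cdkn1c side of the H19 region. Tssc4 stood at 181, 191 and 201 TPM with NAT and 156, 162 and 178 TPM with DMSO, a log2 fold change of 0.21 ± 0.07 with a limma adjusted p of 0.307. Osbpl5, an oxysterol-binding protein gene, was at -0.16 ± 0.07. For P7C3-A20 against DMSO, Ube3a was at -0.22 ± 0.05 (limma adjusted p 0.155) and Tssc4 at 0.28 ± 0.07 (limma adjusted p 0.158). With the GC trend removed these were -0.16 and 0.18. Voom on the recovered reads called both, with adjusted p-values of 0.0136 and 0.0204.

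Cdkn1c, which encodes the cyclin-dependent kinase inhibitor p57, had the lowest p among the neighbours for NAT against P7C3-A20. It stood at 17.4, 19.4 and 20.3 TPM with NAT, at 23.3, 26.4 and 27.3 TPM with P7C3-A20 and at 18.7, 21.1 and 22.0 TPM with DMSO. Every P7C3-A20 library lay above every library of the other groups. NAT against P7C3-A20 gave a log2 fold change of -0.41 ± 0.08 with a limma adjusted p of 0.168, and -0.34 with a limma adjusted p of 0.208 when the GC trend was removed. Voom on the recovered reads called it, at -0.46 with an adjusted p of 0.0114. Against DMSO, Cdkn1c was at 0.30 ± 0.08 with P7C3-A20 (limma adjusted p 0.166, and 0.20 on the log2 scale with the GC trend removed) and at -0.11 ± 0.08 with NAT. Ube3a was at 0.20 ± 0.05 for NAT against P7C3-A20, at 0.12 with the GC trend removed, and was called by voom with an adjusted p of 0.0415.

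Among 29 other imprinted genes, all had a value and 20 passed the filter, and none was called in any comparison by limma. Airn, the non-coding RNA that silences Igf2r from the opposite strand, stood at 1.58, 1.77 and 1.60 TPM with NAT, at 1.91, 2.21 and 2.06 TPM with P7C3-A20 and at 1.19, 1.17 and 1.00 TPM with DMSO. The 3 groups did not overlap one another. The log2 fold changes were 0.32 ± 0.13 for NAT (limma adjusted p 0.390) and 0.53 ± 0.13 for P7C3-A20 (limma adjusted p 0.158), the second 0.54 with the GC trend removed, on 11 to 30 reads per library. Since Airn overlaps Igf2r and strand is not stated to have been kept, its reads are uncertain. Peg10, a retrotransposon-derived growth gene, was at 0.19 ± 0.08 with NAT. Gnas, which encodes the stimulatory G protein alpha subunit, was at 0.09 ± 0.03 for P7C3-A20 against DMSO and at -0.07 ± 0.03 for NAT against P7C3-A20, with -0.01 in both when the GC trend was removed. Inpp5f, a phosphoinositide phosphatase gene, was at 0.12 ± 0.05 for NAT against P7C3-A20, and at 0.08 with the GC trend removed.

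Genes of DNA methylation and imprint control, listed here as imprint maintenance genes, differed widely in level. They ran from Trim28 at a mean of 186 TPM to Dnmt3l and Dppa3 at 0.02 TPM. Of 19 listed, 17 passed the filter and none was called by limma in any comparison. Dnmt1, the maintenance DNA methyltransferase, stood at 74.7, 74.7 and 73.0 TPM with NAT, at 67.3, 67.7 and 69.3 TPM with P7C3-A20 and at 69.4, 65.7 and 66.0 TPM with DMSO. All NAT libraries lay above the other 6. The log2 fold change of NAT against DMSO was 0.14 ± 0.04 with a limma adjusted p of 0.225. Uhrf1, which brings Dnmt1 to newly replicated DNA, was at 0.16 ± 0.05 for NAT against DMSO and at 0.17 ± 0.05 for NAT against P7C3-A20, the second 0.20 with the GC trend removed. Smchd1, a chromatin protein of imprinted clusters and the inactive X, was at 0.21 ± 0.06 for NAT against P7C3-A20, at 0.13 with the GC trend removed, and was called by voom (adjusted p 0.0427). For P7C3-A20 against DMSO, Trim28, the corepressor that guards imprinted control regions, was at 0.12 ± 0.05, and Mbd3, a subunit of the NuRD complex, at 0.14 ± 0.06. These were 0.02 and 0.03 with the GC trend removed.

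The genes through which Grb10 acts at the insulin and IGF1 receptors gave 19 of 20 that passed the filter and no limma call in any comparison. Akt2, a kinase of insulin signalling, stood at 75.8, 77.1 and 78.2 TPM with NAT and 69.2, 72.6 and 70.7 TPM with DMSO, a log2 fold change of 0.12 ± 0.04. Mtor, the growth kinase that phosphorylates and stabilises Grb10, was at 0.12 ± 0.04 with NAT. With P7C3-A20 against DMSO, Tsc2, an inhibitor of that kinase, was at 0.19 ± 0.05 (limma adjusted p 0.166) and was called by voom (adjusted p 0.0381), and Akt1 was at 0.08 ± 0.03. These were 0.12 and -0.02 with the GC trend removed. Between the compounds, NAT over P7C3-A20, the insulin receptor gene Insr was at 0.11 ± 0.05, and at 0.07 with the GC trend removed.

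As medians of the log2 fold change for NAT against DMSO, the 10 genes stood at 0.06, their neighbours at 0.06, the other imprinted genes at 0.03, the imprint maintenance genes at 0.05 and the Grb10 signalling genes at 0.08, beside 0.03 for all genes tested. For P7C3-A20 against DMSO the medians in the same order were 0.02, 0.04, 0.01, 0.01 and 0.04, beside 0.01. Between NAT and P7C3-A20 they were 0.05, 0.06, 0.01, 0.04 and 0.04, beside 0.01. Of the 10 genes, 6 were positive and 4 negative in each comparison, where 63.5%, 55.2% and 54.0% of all genes were positive.

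**Figure D5:**
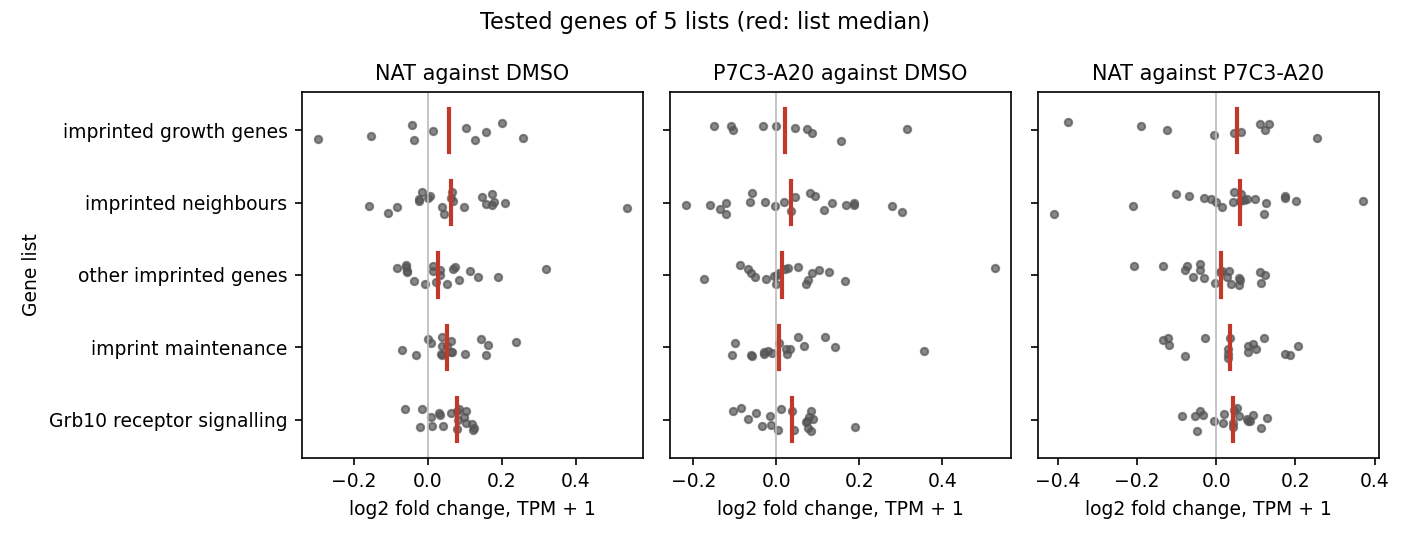
Log2 fold change (log2(TPM + 1) scale) of every tested gene in the list of 10 genes and in 4 related lists, as points, with the list median as a red bar, in the 3 comparisons. The medians lay between 0.01 and 0.08, and the single points ran from -0.41 (Cdkn1c, NAT against P7C3-A20) to 0.54 (Mir335, NAT against DMSO, at 0 to 2 reads per library).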

How the data were processed

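Total RNA went into 9 TruSeq libraries, as the labels' protocols say. The deposited table gives TPM for each gene and library, made by the authors, and each column sums to 1000000. That sum alone does not show scaling by length, but the reads behind a TPM differed between genes. In NAT replicate 1, Ndn had 74.6 TPM on 572 recovered reads and Peg3 76.0 TPM on 2338. Bowtie 0.12.2 and the builds mm8 and mm9 are named, with no role, per the submitters' processing notes. For the counter and annotation, the tool is not given in the sources used here. The members and gene lists were chosen with earlier results of these data known.

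Of 23420 symbols, 13839 with at least 1 TPM in at least 3 libraries entered limma-trend (limma 3.58.1, R 4.3.3) on log2(TPM + 1), with 1 fit for all 9 libraries and two-sided tests. Whole reads were recovered for 99.99% of genes with a value, within a tolerance of 0.001 reads, up to a common divisor, and served depth and voom alone. GC content came from the longest GENCODE transcript of 98.3% of the symbols, and its trend was removed as a spline with 5 degrees of freedom. Recovery and fits were checked on simulated data. The p-values reflect only the spread of these libraries, which may be technical, and intervals from reads cover counting error only. All 10 members were named. From each related list the 2 genes of lowest p per comparison and the most abundant neighbours were named. A result that this rule would name is not reported here. Others, such as Copg2, Meg3, Igf2, Usp29, Magel2, Dio3, Mir675 and Mir335, were chosen after their values were seen. Promoter sequences and coordinates are RefSeq's on GRCm38.p6, which is not the build named in the notes. Python 3.11.15 was used for the other steps.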

Additional observations from a re-analysis of the deposited data

How the results depend on the processing

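None of the 10 genes was called in any comparison under any alternative run, and the lowest adjusted p was 0.0601, for Nnat by voom on recovered reads, NAT against P7C3-A20. Over all genes, voom called 29 genes where NAT was set against DMSO (limma-trend 4), 273 where P7C3-A20 was (limma-trend 3), and 301 between NAT and P7C3-A20 (limma-trend 0). Same-numbered libraries correlated between -0.062 and 0.067, and differently numbered ones between -0.09 and 0.099. The GC slope was lowest in replicate 1 of each group, at -0.062 with NAT, 0.0159 with P7C3-A20 and -0.0523 with DMSO. Whether the numbers pair the libraries was not tested. With the replicate block, 0 of the 10 were called in each comparison, and Tssc4 was called for P7C3-A20 against DMSO (adjusted p 0.0444), but 0 listed genes were with the GC trend also removed.

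Under the alternatives, 503 log2 fold changes of single genes kept their direction and 28 changed sign, all of them uncalled. The cause was not tested. For NAT against DMSO, Peg3 was at -0.0172 with the GC trend removed, alone or with the replicate block, at -0.0205 with quantile normalization, at -0.0226 by voom, and between -0.0132 and 0.0375 with a library left out. For P7C3-A20 against DMSO, the GC trend removed, alone or with the replicate block, gave -0.0099 for Nnat, -0.0022 for H19 and 0.021 for Impact. There Snrpn was at -0.0127 with quantile normalization, -0.007 with a pseudocount of 0.1 and -0.0302 by voom. With a library left out, H19 ran between -0.0673 and 0.1888, Snrpn between -0.0651 and 0.1073 and Impact between -0.0674 and 0.007. For NAT against P7C3-A20, Ndn was at -0.0023 with the GC trend removed, alone or with the replicate block. With a library left out, Dlk1 ran between -0.1177 and 0.1818 and Grb10 between -0.0521 and 0.0392.

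With a library left out, the number of the 10 genes whose groups did not overlap ran from 3 to 6 for NAT against DMSO, with 6 without DMSO replicate 3, beside 32.2% of all genes. It ran from 3 to 5 for P7C3-A20 against DMSO, with 5 without P7C3-A20 replicate 3, beside 30.8%, and 4 without P7C3-A20 replicate 1, beside 33.3%, or DMSO replicate 3, beside 36%. It ran from 3 to 6 for NAT against P7C3-A20, with 6 without P7C3-A20 replicate 1, beside 36.1%, and 5 without NAT replicate 2, beside 35.6%, or NAT replicate 3, beside 31.6%. Fewer libraries overlap less often by construction. Depth limits Snrpn, H19, Dlk1 and Plagl1 most.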
